A study of Hynobius leechii and Hynobius unisacculus and Hynobius quelpaertensis with 23 samples.

Results

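The livers described here are the extremes of trypsin transcript within each lineage of Hynobius, a genus of Asian salamanders. Within each of 6 tables of read counts, the liver with the highest trypsin level was set against the liver with the lowest, which gave 12 of the 15 livers and of the 23 libraries of the series. The trypsin row was PRSS1 in 5 tables and PRSS3 in HYNLE+HC1. The livers were chosen by this measured value, so every difference between the high and the low liver of a table is given as a description, without a test.

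All animals were untreated adults caught in the wild in Korea. The HYNLE+HC1, HYNLE+HC3 and HYNLE tables held 3 livers each of Hynobius leechii. HYNQU held 2 livers of H. quelpaertensis, HYNUN 2 of H. unisacculus and HYNYA 2 of H. yangi. Each liver was from a different animal, and 5 intestines and 3 skins were taken from animals that also gave a liver. The labelled extraction step speaks of embryos, whereas every library is labelled as adult tissue. Sex, age and the way each liver was dissected were not given in the sources used here.

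The exocrine pancreas of vertebrates is built of acinar cells, which make digestive enzymes, store them in zymogen granules and release them into ducts that lead to the gut. Trypsin is made as the inactive trypsinogen, and in mammals enteropeptidase of the intestine starts its activation. Active trypsin then activates chymotrypsinogens, proelastases, procarboxypeptidases and prophospholipase. Duct cells add bicarbonate fluid, and islet cells of the same gland release insulin, glucagon, somatostatin and pancreatic polypeptide into the blood.

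The liver libraries were of 2 kinds, which bears on every pair. In the livers of the 6 animals that also gave intestine or skin, odd numbers made up 43.0% to 51.4% of the values between 1 and 19, against 11.3% to 18.2% in the other 9 livers. The 6 odd-count livers had totals of 15103944 to 19281948 counts and 24.3% to 40.8% of their rows at 0. The other 9 livers had totals of 8672566 to 16013480 counts and 0.654% to 15.9% of rows at 0. Every high and low pair held 1 library of each kind. The odd-count liver was the high one in HYNLE+HC3 and HYNYA and the low one in the other 4 tables. Within a pair, the library kind and the trypsin level cannot be told apart, so a gene was counted as going with trypsin only if it did so in at least 1 of HYNLE+HC3 and HYNYA. The value was also given, where possible, between the 2 even-count livers of the 3 H. leechii tables.

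Trypsin differed between livers of the same lineage by 4.96-fold to 848-fold. Levels are CPM, the count of a gene per 1000000 counts of named genes, and intervals on folds are exact 95% binomial intervals that cover counting error only. In HYNLE+HC1 the PRSS3 level was 2864 CPM in the high liver, 1433 CPM in the remaining liver and 577 CPM in the low liver, a fold of 4.96 (4.85 to 5.07) from low to high. In HYNLE+HC3 the PRSS1 levels were 8715, 5601 and 10.6 CPM in the same order, and the fold was 823 (678 to 1009.9). In HYNLE they were 10995, 66.1 and 18.2 CPM, and the fold was 603 (539.6 to 675). Thus 2 of the 3 HYNLE+HC3 livers were high, 2 of the 3 HYNLE livers were low, and the HYNLE+HC1 livers were spread over a narrower range. In the tables with 2 livers, PRSS1 was 3598 against 8.61 CPM in HYNQU, 13950.0 against 138 CPM in HYNUN and 1568 against 1.85 CPM in HYNYA. These were folds of 418 (359 to 489.7), 101 (97.1 to 105) and 848 (549 to 1388). The last rests on 20 counts in the low liver, and its interval spans the fold of HYNLE+HC3. In these bulk libraries more cells of a type and more RNA per cell cannot be told apart.

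**Figure D1:**
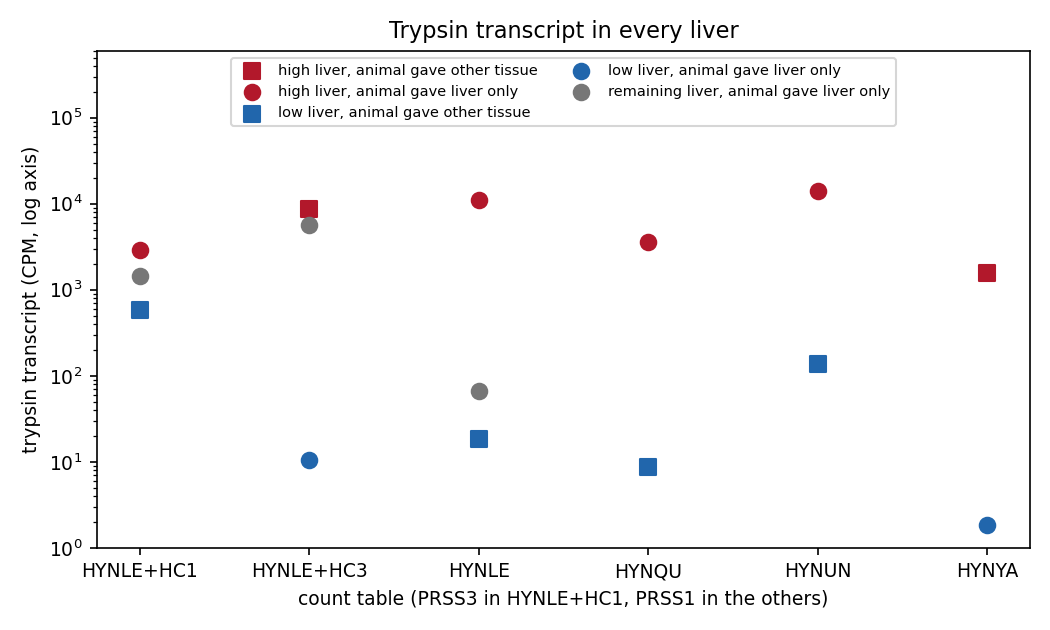
Trypsin transcript in each of the 15 livers, in CPM on a log axis, by count table. Red, blue and grey mark the high, low and remaining liver, and squares mark the livers of animals that also gave intestine or skin. The low livers lie at 1.85 to 577 CPM and the high livers at 1568 CPM and above.

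The label was checked against the other digestive enzymes. Of 34 listed enzymes of the pancreas, stomach and brush border, 29 had a row in at least 1 table and 23 reached 10 CPM in a high or low liver. A member is called higher or lower here where it reached 10 CPM in either liver and the log2 ratio of CPM + 1, high over low, was at least 1 or at most -1. By that rule 20 members were higher in at least 1 table, and 2, RNASE1 and MGAM, were lower in at least 1. Over the tables, 50 of 87 cases of a member in a table were higher and 3 were lower, with a median of table medians of 3.32 on the log2 scale. Over all genes, 6.02% of 49173 such cases were higher and 7.72% were lower, and with TMM factors 7.36% were higher and 6.08% lower. The list includes the trypsin gene that chose the livers.

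The share of the enzymes held in a table that was higher was 43.8% in HYNLE+HC1, 64.3% in HYNLE+HC3 and in HYNLE, 66.7% in HYNQU, 64.7% in HYNUN and 42.9% in HYNYA. Of all genes of the same tables, 8.8%, 5.58%, 4.85%, 6.37%, 5.78% and 3.97% were higher, and 8.74%, 9.82%, 7.84%, 4.47%, 8.65% and 6.08% were lower. Counted over the genes at 10 CPM in either liver alone, 21%, 15.3%, 10.8%, 14.4%, 14.2% and 8.65% were higher, and 20.8%, 26.9%, 17.5%, 10.1%, 21.3% and 13.3% were lower.

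Carboxypeptidases cut amino acids from the end of a protein chain. Of these, CPA1 was among the most regular followers, higher in all 5 tables that held it, whereas CPB1 was higher in 3 of 6. CPA1 was 1841 against 5.50 CPM in HYNLE+HC3, with 1272 CPM in the remaining liver. It was 2681 against 15.3 CPM in HYNLE, with 37.9 CPM in the remaining liver. In HYNQU it was 607 against 7.47 CPM and in HYNYA 611 against 5.55 CPM. The HYNUN pair stood apart, since CPA1 was 4963 CPM in the high liver and still 2235 CPM in the low one, with 246 CPM in the skin and 175 CPM in the intestine of the low animal. The log2 ratios were 8.15, 7.36, 6.17, 6.55 and, in HYNUN, 1.15. CPB1, which removes basic residues from the chain end, had log2 ratios of 5.12 in HYNQU, 6.34 in HYNUN and 7.86 in HYNYA, and 0.97 in HYNLE+HC1. In HYNLE+HC3 and HYNLE it stayed under 10 CPM in both livers.

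Chymotrypsins and elastases, the other pancreatic endopeptidases, followed in most tables under different symbols. CTRC had log2 ratios of 1.88 in HYNLE+HC1, 8.86 in HYNLE, 5.35 in HYNQU and 6.14 in HYNUN. In HYNLE+HC3 the row named CTRC was 12295 CPM in the high, 3534 CPM in the remaining and 8972 CPM in the low liver, with 1260 CPM in skin, and so did not separate the livers. There the chymotrypsin row CTRB2 did, with 7123, 5002 and 14.0 CPM in the same order. The elastase CELA3B was 1090 against 457 CPM in HYNLE+HC1 and 3457 against 46.8 CPM in HYNUN. CELA2A had log2 ratios of 2.82 in HYNLE+HC3 and 7.92 in HYNQU, and CELA1 had 8.37 in HYNQU and 8.03 in HYNYA. Serine proteases of this family are close in sequence, and how reads were divided among them was not given in the sources used here, so which member a symbol stands for is uncertain.

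Enzymes of fat and starch went the same way. Pancreatic lipase PNLIP had log2 ratios of 1.21 in HYNLE+HC1, 7.21 in HYNLE, 5.84 in HYNQU and 5.73 in HYNUN, and 0.82 in HYNYA, with 62.4 against 34.9 CPM. Its cofactor colipase, CLPS, had 3.10 in HYNLE+HC3, 5.57 in HYNLE and 2.79 in HYNUN. The phospholipase PLA2G1B was 131 against 0.623 CPM in HYNLE+HC3, 330 against 0.345 CPM in HYNLE and 721 against 4.67 CPM in HYNUN. Amylase appeared as AMY2B in HYNLE+HC3, with 517 against 0.830 CPM, and as AMY2A in HYNLE, with 480 against 1.15 CPM. In HYNLE+HC1 AMY2B was 245 against 157 CPM, a log2 ratio of 0.64.

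The exceptions were a ribonuclease and a brush border sugar hydrolase. RNASE1 was 15.7 CPM in the high and 2083 CPM in the low liver of HYNUN, and 4387 and 18022 CPM in the high and low liver of HYNYA. In HYNQU it was 5365 and 5503 CPM. Because of this row, the summed level of the enzyme list in HYNYA was lower in the high liver, at 8345 against 18149 CPM, while in the other 5 tables the sum was higher in the high liver. MGAM was 253 CPM in the high and 1322 CPM in the low liver of HYNLE. Enteropeptidase, TMPRSS15, was held in HYNYA alone and was under 1 CPM in both livers.

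**Figure D2:**
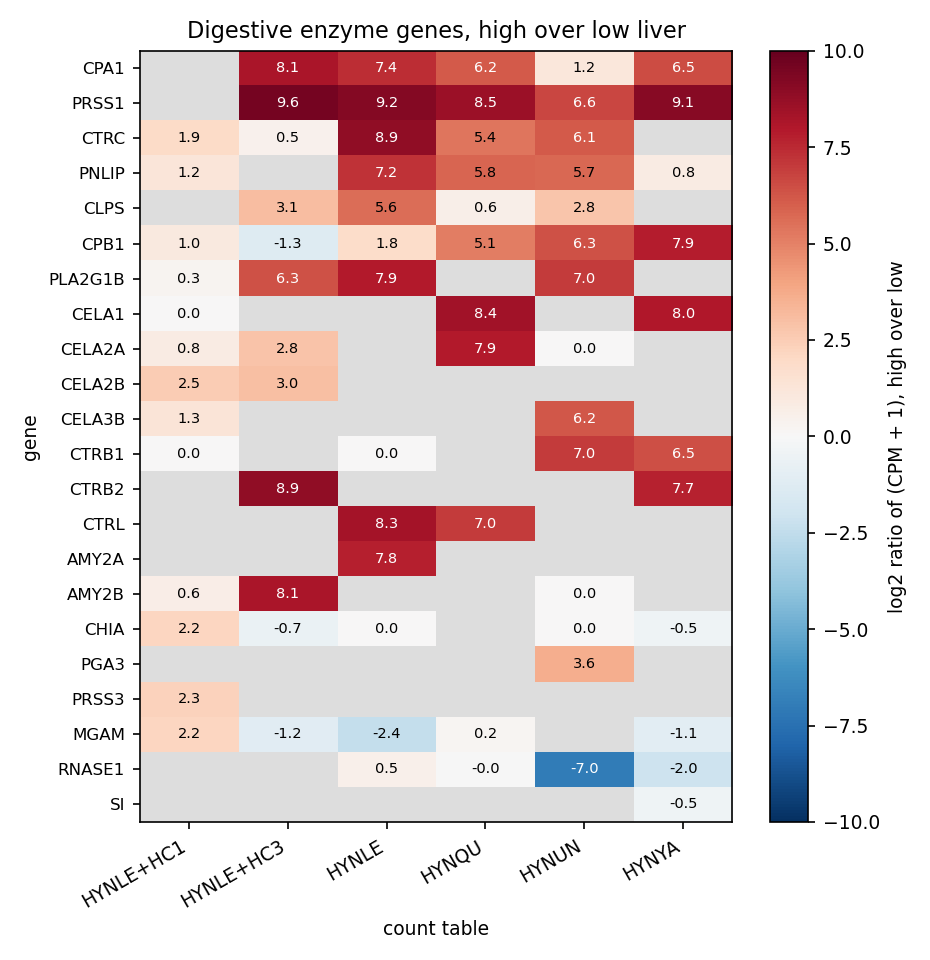
Log2 ratio of CPM + 1, high over low liver, for digestive enzyme genes that reached 10 CPM in at least 1 pair, by count table. Red is higher in the high liver, blue is lower, and grey marks tables without the gene. Most cells are red, and HYNLE+HC1, whose livers differed least in trypsin, has the palest column apart from single genes.

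The 3 remaining H. leechii livers, which the ratios did not use, gave a further view. On the log2 scale of CPM + 1, the trypsin level of the remaining liver lay 56.7% of the way from low to high in HYNLE+HC1, 93.3% in HYNLE+HC3 and 19.7% in HYNLE. The other enzymes that were higher in the high liver lay at a median of 54.7% (6 genes), 93.5% (8 genes) and 20.2% (8 genes) of their own way. Of these, 5 of 6, 7 of 8 and 8 of 8 lay between the low and the high liver. Single enzymes were more widely spread than these medians, from 29.2% to 135%, from 79.9% to 168% and from 8.56% to 47.3%. For all other genes that were higher in the high liver the medians were 53.4%, 78.3% and 90.7%, over 880, 420 and 383 genes. In HYNLE+HC1 that median was as near to trypsin as the median of the enzymes. In HYNLE the enzymes of the remaining liver were near the low end and those other genes near the high end. The low HYNLE liver was an odd-count library and the remaining one was not, and the part of library kind in this was not tested.

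The same enzymes were seen between the 2 even-count livers of a table. In HYNLE+HC3 9 of 14 enzymes were higher in the liver with more trypsin, and 1, CTRC, was lower, against 12.2% of all genes higher and 3.07% lower. In HYNLE 9 of 14 were higher and 1, MGAM, was lower, against 1.76% and 4.34%. In both tables the 9 include PRSS1, by which the liver with more trypsin was chosen. In HYNLE+HC1, where these livers had 2864 and 1433 CPM of PRSS3, 1 of 16 was higher, CELA2B, and none lower, against 6.1% and 3.82% of all genes.

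Among 1936 genes that were held in at least 4 tables and reached 10 CPM in enough pairs to qualify, 8 (0.413%) were higher in at least 4 tables including HYNLE+HC3 or HYNYA. Of these, 3 were digestive enzymes, PRSS1 and CPA1 among them, and 5 were not, namely KLK14, CUZD1, SERPINI2, TOMM20 and POLR2I. PRSS1 is among them by the choice of the livers and is no finding. KLK14 and CPA1 were higher in every table that held them. Between the even-count livers of the 3 H. leechii tables, 836 genes reached 10 CPM in all 3 pairs, and 1 (0.12%), the acinar gene SYCN, was higher with trypsin in all 3, while 6 (0.718%) were lower.

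KLK14, in humans a trypsin-like serine protease of the kallikrein family known from skin, was higher in the high liver of all 6 tables. It was 297, 229 and 6.004 CPM in the high, remaining and low liver of HYNLE+HC1. In HYNLE+HC3 it was 59.3, 57.8 and 0 CPM, and in HYNLE 63.2, 0.883 and 0.979 CPM. The remaining liver of HYNLE+HC3 was thus with the high liver and that of HYNLE with the low one, as for trypsin. KLK14 was 88.6 against 0.363 CPM in HYNQU, 77.4 against 1.10 CPM in HYNUN and 13.0 against 0.555 CPM in HYNYA. The log2 ratios were 5.41, 5.91, 5.02, 6.04, 5.22 and 3.17, and no low liver reached the high liver of any table. In HYNLE+HC3, whose low liver had no count, the high liver was at least 190-fold higher, with 3 counts as the floor of that library. Of 212 genes at 10 CPM in all 6 pairs, KLK14 alone was higher in the high liver of all 6, and none was lower in all 6. Between even-count livers its log2 ratio was 0.37 in HYNLE+HC1, 5.88 in HYNLE+HC3 and 5.09 in HYNLE.

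This row was not particular to liver. KLK14 was 113 to 1421 CPM in the 5 intestines, and at most 0.392 CPM in the 3 skins. In HYNQU the intestine had 1421 CPM of KLK14 and 383 CPM of PRSS1, while in HYNLE it had 132 CPM of KLK14 and no count of PRSS1. The KLK14 symbol rests on the deposited annotation, and whether its row holds a salamander kallikrein or another protease of the trypsin family was not tested.

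CUZD1, a zymogen granule membrane protein of mammalian acinar cells, was higher in 4 of the 5 tables that held it. It was 999.7 against 0.460 CPM in HYNLE, with 22.6 CPM in the remaining liver, and 147 against 1.19 CPM in HYNQU. It was 1097 against 11.8 CPM in HYNUN and 173 against 7.95 CPM in HYNYA. In HYNLE+HC1 the 3 livers did not order with trypsin, at 254, 339 and 160 CPM in the high, remaining and low liver. The log2 ratios were 9.42, 6.08, 6.42, 4.28 and, in HYNLE+HC1, 0.67. CUZD1 also had 257 CPM in the HYNUN skin and 731 CPM in the HYNLE intestine.

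SERPINI2, a serine protease inhibitor first named in human pancreas (pancpin), was counted at lower levels. It was 11.5, 8.07 and 2.38 CPM in the high, remaining and low liver of HYNLE+HC1 and 27.3, 16.3 and 0.415 CPM in HYNLE+HC3. In both tables the 3 livers had the same order as trypsin. It was 19.7 against 0.165 CPM in HYNUN and 77.0 against 0.555 CPM in HYNYA, the low HYNUN value being 3 counts, which puts the fold of 119 between 40.5 and 582. In HYNQU it was 5.44 against 0.415 CPM, under the 10 CPM limit. The intestines and skins had 0.432 to 4.70 CPM, so the high livers of HYNLE+HC3, HYNUN and HYNYA were well above both.

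TOMM20, an import receptor of mitochondria, and POLR2I, a subunit of RNA polymerase II, also passed, each with 1 table in which the high liver had less. TOMM20 had no count in the odd-count livers of 5 tables, 4 of them low livers and 1, in HYNYA, the high liver, and its HYNYA log2 ratio was -3.25. It passed through HYNLE+HC3, with 3426 against 1029 CPM, where the odd-count liver was the higher one, and its level reached 6.18 to 21.6 CPM in the even-count livers of the other pairs. Between even-count livers its log2 ratio was -0.37 in HYNLE+HC1, 1.02 in HYNLE+HC3 and -0.31 in HYNLE. POLR2I had log2 ratios of 3.53, 0.26, 1.21, -0.34, 3.05 and 1.18 in the 6 tables, and of -0.18, 0.76 and 0.00 between even-count livers. Its odd-count liver was the higher one in HYNLE+HC3, HYNQU and HYNYA and the lower one in the other 3 tables. The part of library kind in both was not tested. RPS26, a ribosomal protein gene named after its values were seen, had no count in any of the 6 odd-count livers and 35.0 to 201 CPM in their partners.

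**Figure D3:**
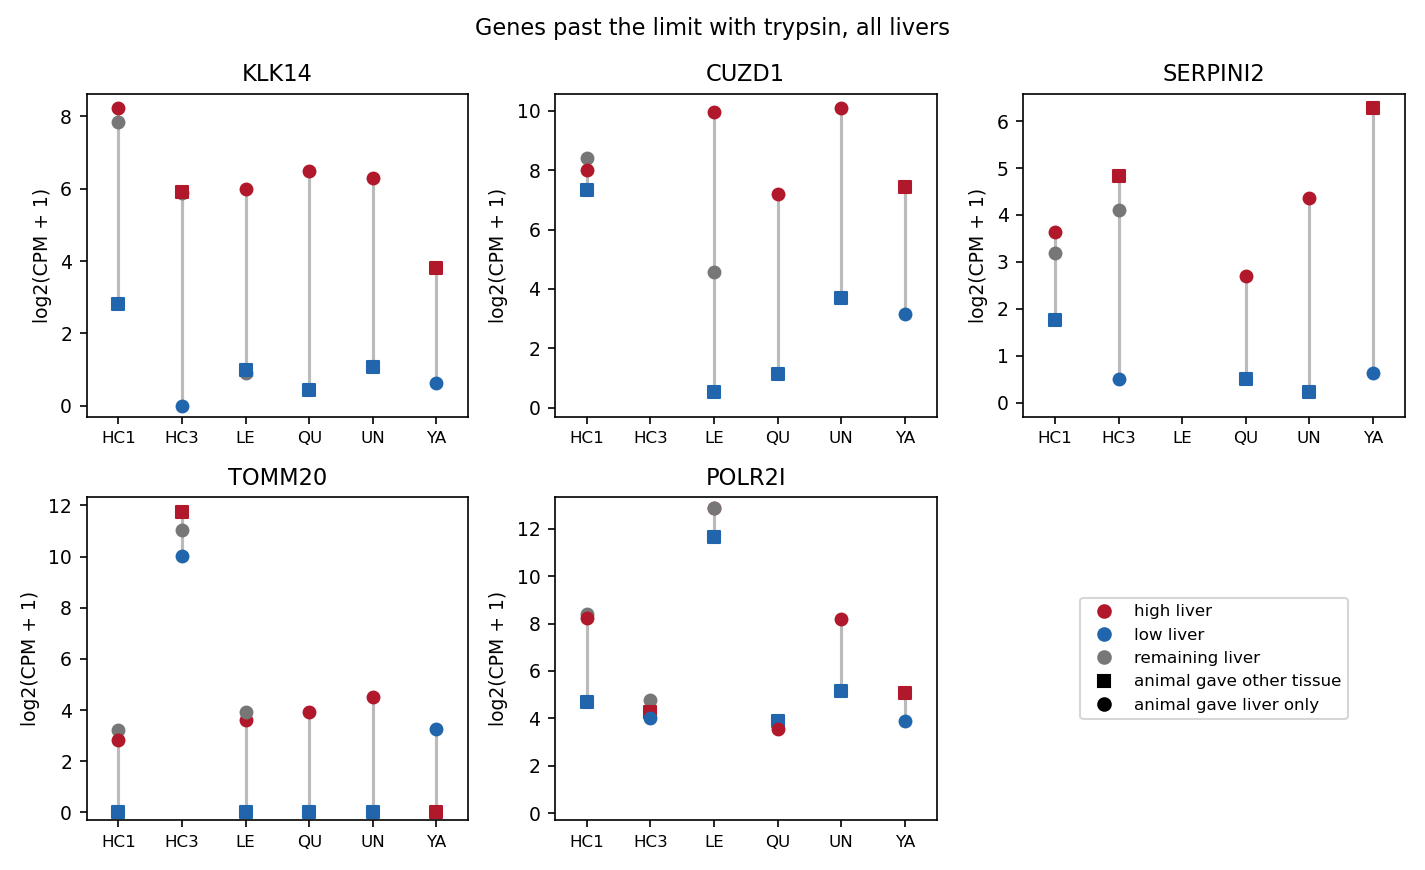
Levels in log2(CPM + 1) of the 5 genes other than digestive enzymes that were higher with trypsin in at least 4 tables, in every liver. Red, blue and grey mark high, low and remaining livers, squares mark the odd-count livers, and a line joins each pair. KLK14 separates the pair in all 6 tables, whereas TOMM20 is at 0 in 5 of the 6 odd-count livers.

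Acinar cell genes other than enzymes formed the list nearest to the enzymes, at smaller ratios. Of 35 listed, 21 had a row, and 23 of 76 cases of a gene in a table were higher and 1, GATA4 in HYNLE+HC1, was lower. These are 30.3% and 1.32%, against 6.02% and 7.72% of the cases of all genes. The median of table medians was 0.68 on the log2 scale, and the summed level was higher in the high liver of all 6 tables. The pairs were 276 against 72.8 CPM at the lowest and 3689 against 1679 CPM at the highest. The sum was not particular to liver, with 335 to 2673 CPM in the intestines and 362 to 777 CPM in the skins. NUPR1 made up most of both HYNLE+HC1 sums. SYCN, or syncollin, a protein inside zymogen granules, was 301, 62.1 and 0 CPM in the high, remaining and low liver of HYNLE+HC3 and 716, 309 and 7.02 CPM in HYNLE. It was 74.4 against 4.06 CPM in HYNUN. The HYNLE+HC1 pair did not share this, with 59.2 CPM in the high and 103 CPM in the low liver, an odd-count library. Between the even-count livers of HYNLE+HC1 SYCN was higher with trypsin, at a log2 ratio of 1.34. In HYNYA SYCN was at 0 and 0.185 CPM.

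Other granule genes were higher in some of the tables that held them. ZG16, a lectin of the granule membrane, was 11.6 against 5.29 CPM in HYNLE+HC1, 37.3 against 4.98 CPM in HYNLE+HC3, 12.9 against 0.460 CPM in HYNLE and 6.70 against 0 CPM in HYNQU. It was also 102 to 1231 CPM in 3 intestines. PDIA2, a protein disulfide isomerase of mammalian pancreas, was 460 against 1.78 CPM in HYNLE and 53.7 against 0 CPM in HYNQU, but 52.2 against 51.4 CPM in HYNLE+HC1 and under 2 CPM in the livers of the other pairs. GP2, the main glycoprotein of the mammalian granule membrane, was held in HYNLE+HC1 alone, with 17.6, 0.922 and 0 CPM. The values of 0 for ZG16 and PDIA2 in HYNQU and for GP2 were in odd-count livers. NUPR1, a stress-induced nuclear protein, was 1766 against 641 CPM in HYNLE+HC1. The amino acid transporter SLC38A5 had its high levels in HYNLE, with 1409.6 against 1612 CPM, and did not differ by the limit there.

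The transcription factor BHLHA15, which in mice sets up the secretory apparatus of acinar cells, was 31.2, 13.8 and 15.8 CPM in the high, remaining and low liver of HYNLE and 33.8 against 29.8 CPM in HYNUN. NR5A2, which the liver also uses, was 17.2 against 22.5 CPM in HYNLE+HC3 and 15.6 against 17.8 CPM in HYNQU. In HYNYA BHLHA15 had no count in the high liver and 1.11 CPM in the low one. Neither factor passed both limits in any high and low pair. Between the even-count HYNLE livers BHLHA15 did, with a log2 ratio of 1.12.

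KLK8, a second kallikrein symbol and one named after its values were seen, was higher in 3 of the 5 tables that held it, 1 short of the limit. It was 3093, 2308 and 2.08 CPM in the high, remaining and low liver of HYNLE+HC3 and 1436, 9.38 and 1.73 CPM in HYNLE. In HYNUN it was 294 CPM against no count in the low liver, an odd-count library. The position of the remaining liver was 95.8% of the way in HYNLE+HC3 and 21.3% in HYNLE, next to 93.3% and 19.7% for trypsin. In HYNLE+HC1 and HYNYA it was under 2 CPM in both livers.

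Endocrine genes were higher at about the share of all genes and lower at a larger one. Of 42 listed, 20 had a row, 4 of 58 cases (6.90%) were higher and 8 (13.8%) were lower, against 6.02% and 7.72% over all genes, and the median of table medians was -0.01. INS, which encodes insulin, was held in HYNLE+HC3 alone, at 11.4, 31.1 and 12.7 CPM in the high, remaining and low liver, with 0.784 CPM in skin. It was therefore counted in the liver with 10.6 CPM of trypsin at about the level of the liver with 8715 CPM, an odd-count library. Between the 2 even-count livers of that table INS was higher with trypsin, at a log2 ratio of 1.23. Between even-count livers 1 of 16, 2 of 8 and 0 of 8 endocrine genes were higher in HYNLE+HC1, HYNLE+HC3 and HYNLE. Lower were 2, 2 and 1. Of all genes 6.1%, 12.2% and 1.76% were higher there, and 3.82%, 3.07% and 4.34% lower. GCG, for glucagon, was 27.9, 62.1 and 74.7 CPM in the high, remaining and low liver of HYNLE+HC1, the reverse of the order of trypsin. SST, for somatostatin, was at most 0.208 CPM in the pairs that held it. PPY, for pancreatic polypeptide, was higher by the limits in 1 of the 3 tables that held it, HYNQU, with 109.8 against 14.0 CPM. In HYNLE+HC3 it was 9.20, 7.23 and 0 CPM in the high, remaining and low liver, under the limit of 10 CPM, and in HYNLE+HC1 the pair had no count.

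Granule proteins of endocrine cells varied without a common direction. CHGA, chromogranin A, was 18.6, 232 and 1288 CPM in the high, remaining and low liver of HYNLE+HC3, a log2 ratio of -6.04, and under 5 CPM in the other pairs. SCG2, secretogranin II, was 0.535 against 12.8 CPM in HYNLE+HC3 and 8.51 against 41.5 CPM in HYNQU. CPE, the carboxypeptidase of prohormone processing, had log2 ratios of -1.52 in HYNQU and 1.73 in HYNYA. ABCC8, the sulfonylurea receptor of beta cells, was 134, 169 and 0.173 CPM in the high, remaining and low liver of HYNLE, so that the 2 even-count livers were alike and the odd-count liver had 3 counts. Transthyretin, TTR, which made up most of the summed level of this list in HYNLE, HYNQU and HYNUN, is a hepatocyte product as well and had ratios of -0.08, -0.26 and 0.48 there.

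Counted over all genes held, duct and bile duct genes passed the limit at about the share of all genes. Of 39 listed, 32 had a row, 10 of 113 cases (8.85%) were higher and 6 (5.31%) were lower, against 6.02% and 7.72% over all genes, and the median of table medians was 0.21. In HYNLE+HC1, HYNLE+HC3 and HYNLE, 2 of 9, 2 of 4 and 2 of 5 duct genes at 10 CPM were higher. Lower were 3, 0 and 1. In HYNQU, HYNUN and HYNYA, 1 of 7, 3 of 11 and 0 of 3 were higher, and 1, 1 and 0 lower. Of all such genes 21%, 15.3%, 10.8%, 14.4%, 14.2% and 8.65% were higher. The duct share was larger in HYNLE+HC3, HYNLE and HYNUN, near that of all such genes in HYNLE+HC1 and HYNQU, and smaller in HYNYA. Between even-count livers 3 of 24, 4 of 17 and 1 of 17 duct genes were higher with trypsin in HYNLE+HC1, HYNLE+HC3 and HYNLE. These are 12.5%, 23.5% and 5.88%, each a larger share than the 6.1%, 12.2% and 1.76% of all genes. Lower were 0, 1 and 0 duct genes, against 3.82%, 3.07% and 4.34% of all genes. The summed level of the duct list was higher in the high liver of all 6 tables, from 956 against 865 CPM in HYNYA to 917 against 395 CPM in HYNLE+HC3. KRT7, a keratin of duct epithelium, was 287, 82.2 and 42.9 CPM in the high, remaining and low liver of HYNLE+HC1 and 236 against 70.6 CPM in HYNUN, the 2 tables that held it. EPCAM, an adhesion protein of epithelial cells, was 57.6, 19.9 and 6.66 CPM in HYNLE+HC1, 24.5 against 7.36 CPM in HYNUN and 10.1, 40.5 and 7.26 CPM in HYNLE+HC3. KRT7 and EPCAM were both higher in the skin or intestine of the same tables, with KRT7 at 1252 to 32222 CPM in the 2 skins. KRT19, another duct keratin, had log2 ratios of 0.65 in HYNLE+HC1, 1.75 in HYNLE, -0.52 in HYNUN and 0.32 in HYNYA. KRT8, shared by hepatocytes and duct cells, had 1.02 in HYNLE, 0.61 in HYNQU, 0.17 in HYNLE+HC1 and 0.04 in HYNYA.

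CFTR, the chloride channel through which ducts secrete, was under 10 CPM in every high and low liver, at 6.70 against 0 CPM in HYNLE+HC1. The water channel AQP1 was lower in the high liver of HYNLE+HC1, at 61.8 against 152 CPM, and of HYNQU, at 62.7 against 132 CPM. Carbonic anhydrase CA2 was lower in HYNLE+HC1 and HYNLE, with log2 ratios of -2.07 and -1.37. ANXA4, an annexin of duct and other epithelia, had ratios of 0.20 in HYNLE+HC1 and 0.68 in HYNUN. No gene of the duct list was higher in more than 2 tables.

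Genes of the general secretory machinery were not higher more often than all genes, of whose cases 6.02% were higher and 7.72% lower. Of the genes for entry into and folding in the endoplasmic reticulum, 15 of 268 cases (5.60%) were higher and 26 (9.70%) were lower, with a median of table medians of 0.11. For vesicle traffic and granule release, 8 of 201 cases (3.98%) were higher and 21 (10.4%) were lower, with a median of -0.16. P4HB, a protein disulfide isomerase, had log2 ratios of 0.44 in HYNLE+HC3 and 1.19 in HYNUN. In HYNYA it had no count in the high liver, an odd-count library, and 104 CPM in the low one. Calreticulin, CALR, a folding chaperone, was lower in HYNLE+HC1, at -1.96, and higher in HYNLE, at 1.28. PDIA4, a further isomerase, had ratios of -0.93 in HYNLE+HC1, -1.10 in HYNLE+HC3 and 0.70 in HYNQU, and the translocon subunit SEC61A1 had -0.56, -0.04, 0.62 and -0.23 in HYNLE+HC1, HYNLE+HC3, HYNQU and HYNUN. RAB3D, a GTPase of zymogen granules in mammals, was 2109.8 against 339.9 CPM in HYNLE+HC1 and under 3 CPM in both HYNUN livers, the only tables that held it. ARCN1, of the COPI coat, was 20913 against 3222 CPM in HYNUN and 127 against 98.2 CPM in HYNQU. SEC13 of the COPII coat had a ratio of -1.77 in HYNLE+HC3 and 0.31 in HYNYA, and TRAPPC3 had -0.36 and 1.02 in HYNLE+HC1 and HYNLE+HC3. Hepatocytes are known to use the same machinery for plasma proteins.

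**Figure D4:**
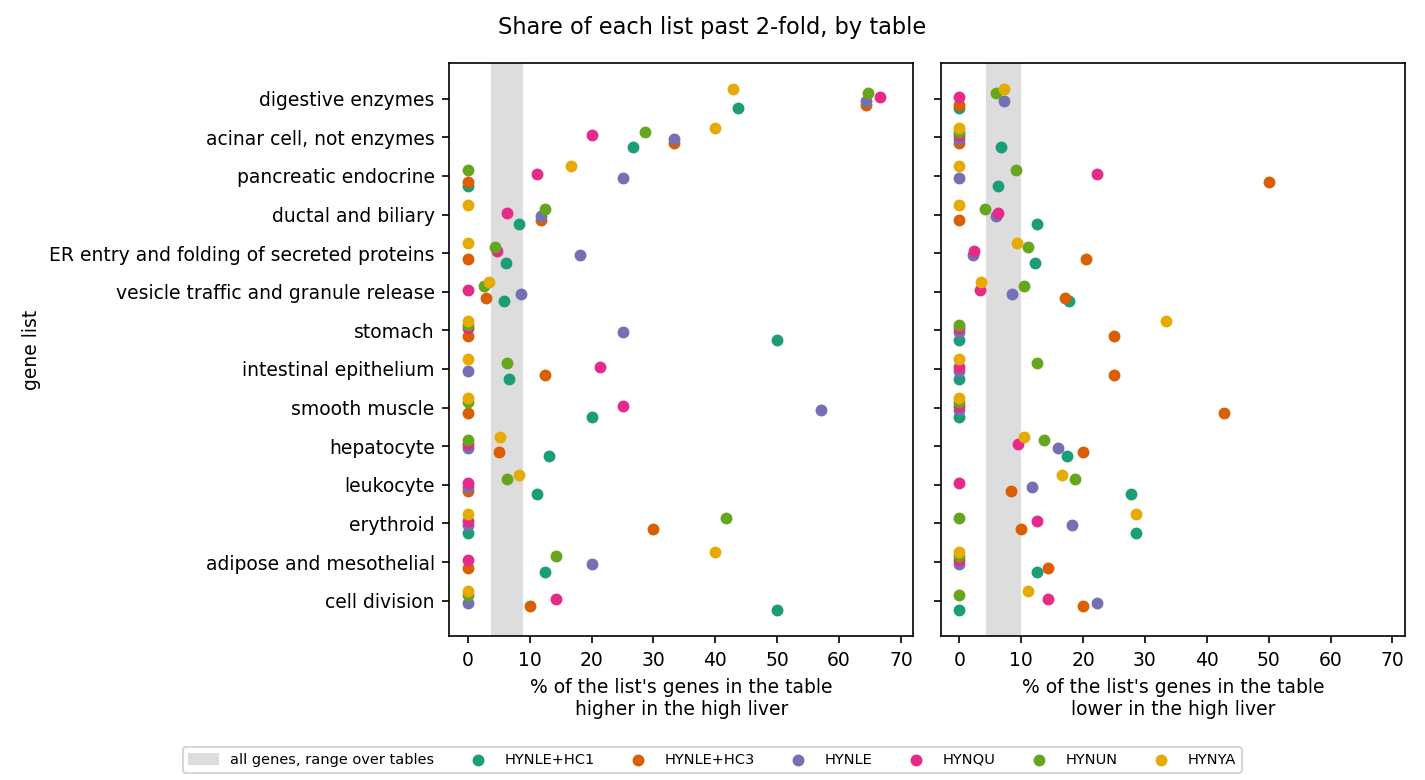
Percent of each list's genes held in a table that were at least 2-fold higher (left) or lower (right) in the high liver and at 10 CPM in either liver, 1 point per table. The grey band is the range of the same percent over all genes of the 6 tables. The digestive enzymes lie at 42.9% to 66.7% on the left and the acinar genes that are not enzymes at 20% to 40%, both above the band in every table.

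Markers of stomach, intestine and muscle were counted beside the enzymes. Of the stomach list 4 of 27 cases (14.8%) were higher and 2 (7.41%) lower, against 6.02% and 7.72% over all genes, and 3 of the 4 were in HYNLE+HC1. There the trefoil peptide TFF2 was 188 against 0.297 CPM, the stomach and foregut factor SOX2 121 against 0.832 CPM, and gastric intrinsic factor GIF 332 against 53.4 CPM. Between the even-count livers of HYNLE+HC1 their log2 ratios were 6.31, 2.24 and -0.31, so GIF did not keep the order of trypsin. CTSE, a stomach protease, was 108 against 0.863 CPM in HYNLE. Over the tables the summed level of the list was 2.30 to 643 CPM in the high livers, 0 to 60.5 CPM in the low livers and 10.7 to 6211 CPM in the intestines. In the HYNLE+HC3, HYNQU and HYNYA pairs it was lower in the high liver, at 2.30 against 39.6, 9.01 against 11.9 and 8.67 against 25.1 CPM.

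Intestinal epithelium genes were higher in 6 of 77 cases (7.79%) and lower in 4 (5.19%), against 6.02% and 7.72% of all genes. Of those at 10 CPM, 1 of 1, 1 of 4 and 0 of 4 were higher in HYNLE+HC1, HYNLE+HC3 and HYNLE. In HYNQU, HYNUN and HYNYA it was 3 of 5, 1 of 3 and 0 of 1. The 4 lower cases were 2 in HYNLE+HC3 and 2 in HYNUN. Of all genes at 10 CPM, 8.65% to 21% were higher by table. FCGBP, a mucus protein of mammalian goblet cells, made up 3 of the 6 higher cases, with 11.1 against 0.238 CPM in HYNLE+HC1, 14.9 against 6.33 CPM in HYNLE+HC3 and 47.0 against 0 CPM in HYNQU. It was 5.83 against 0.0576 CPM in HYNLE, 5.68 against 0.879 CPM in HYNUN and 0 against 1.48 CPM in HYNYA. APOA4, an apolipoprotein of mammalian enterocytes, had ratios of 0.44 in HYNLE+HC3, 0.21 in HYNLE and -1.22 in HYNUN. The cadherin CDH17 was 30.7 against 8.82 CPM in HYNQU and 55.6 against 27.3 CPM in HYNLE, the amino acid transporter SLC6A19 was 68.8 against 0 CPM in HYNUN, and the nuclear receptor HNF4G had ratios of -1.66 in HYNUN and 0.67 in HYNYA. The values of 0 for FCGBP and SLC6A19 in these pairs were in odd-count livers. The summed level of the list was 42.7 to 7317 CPM in the high livers, 18.0 to 9249 CPM in the low livers and 6118 to 21046 CPM in the intestines. The largest liver sums were almost all APOA4, with 7189 CPM in the high HYNLE liver and 9174 CPM in the low HYNUN liver. APOA4 was 27.9 and 5.68 CPM in the intestines of these 2 tables. Smooth muscle genes were higher in 6 of 36 cases (16.7%) and lower in 3 (8.33%). In HYNLE the high liver had more of MYL9, ACTG2 and DES, with ratios of 1.20, 1.72 and 1.38, while TAGLN had 0.48. In HYNQU DES was 1647 against 132 CPM. In HYNLE+HC3 MYL9 was the other way, at 138 against 359 CPM. The summed muscle level was 103 to 1807 CPM in the high livers, 134 to 1828 CPM in the low livers and 1909 to 7597 CPM in the intestines. The part of these tissues in the enzyme difference was not tested.

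Counted over all genes held, hepatocyte and leukocyte genes were lower in the high liver at a larger share than all genes. Of the cases of all genes 6.02% were higher and 7.72% lower. Hepatocyte genes were higher in 5 of 130 cases (3.85%) and lower in 19 (14.6%), with a median of table medians of 0.00 and a summed level that was higher in the high liver of 2 tables. With TMM factors 14 (10.8%) were lower, against 6.08% of all genes. Between even-count livers 2 of 23, 4 of 20 and 3 of 25 were lower in HYNLE+HC1, HYNLE+HC3 and HYNLE. These are 8.70%, 20% and 12%, each a larger share than the 3.82%, 3.07% and 4.34% of all genes. In the high and low pairs of these tables, 4 of 16, 4 of 17 and 4 of 16 hepatocyte genes at 10 CPM were lower. Of all genes at 10 CPM, 20.8%, 26.9% and 17.5% were lower. In HYNQU, HYNUN and HYNYA it was 2 of 16, 3 of 15 and 2 of 17, against 10.1%, 21.3% and 13.3%. Counted this way, the hepatocyte share was near that of all genes. TAT, which breaks down tyrosine, had ratios of -2.03 in HYNLE+HC1, -1.48 in HYNLE+HC3 and -1.66 in HYNUN, and 2.57 in HYNYA. The heme-binding plasma protein HPX had -1.85 in HYNLE+HC3, -2.55 in HYNLE and -1.02 in HYNQU, and 4.76 in HYNLE+HC1. OTC, of the urea cycle, was 1619 against 5306 CPM in HYNQU and 0 against 37.1 CPM in HYNYA, the 0 being in the odd-count liver. The fibrinogen chains FGA and FGB had ratios of 0.58 and 1.47 in HYNLE+HC1, FGB had -1.17 in HYNLE, and prothrombin, F2, had 0.67 in HYNQU, 0.65 in HYNUN and 0.48 in HYNYA. Albumin, ALB, was 19935 against 15983 CPM in HYNQU and 9872 against 20333 CPM in HYNLE. Erythroid genes were higher in 8 of 55 cases (14.5%) and lower in 8 (14.5%), with the globin HBB at ratios of 1.92 in HYNLE+HC3, 2.29 in HYNUN and -0.58 in HYNLE. The other globins HBA1 and HBZ had 1.09 and 1.61 in HYNLE+HC3 and 1.51 and 2.26 in HYNUN, and HBE1 had -0.25 in HYNLE. Leukocyte genes were higher in 4 of 89 cases (4.49%) and lower in 13 (14.6%), or 11 (12.4%) with TMM factors. Their sum was higher in the high liver of 2 tables. In HYNLE+HC1, HYNLE+HC3 and HYNLE, 5 of 9, 1 of 5 and 2 of 7 at 10 CPM were lower. In HYNQU, HYNUN and HYNYA it was 0 of 8, 3 of 9 and 2 of 7. This share was below that of all genes at 10 CPM in HYNLE+HC3 and HYNQU and above it in the rest. Between even-count livers 3 of 18, 1 of 12 and 2 of 17 were lower, against 3.82%, 3.07% and 4.34% of all genes. CD74 was lower by the limit in HYNLE+HC3, HYNLE and HYNUN. The actin-binding CORO1A had ratios of -2.02 in HYNLE+HC1 and 1.21 in HYNYA. LYZ had 1.41 in HYNLE+HC1, LCP1 lay between -0.06 and 0.23 and MPO had -0.51 in HYNLE+HC3.

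Fat and mesothelial genes were higher in 5 of 36 cases (13.9%) and lower in 2 (5.56%), against 6.02% and 7.72% over all genes. Mesothelin, MSLN, was 54.9 against 22.2 CPM in HYNLE+HC1 and 108 against 22.3 CPM in HYNUN, the 2 tables that held it. Between the even-count HYNLE+HC1 livers the log2 ratio of MSLN was -0.74. The keratin KRT5 was 163 against 42.2 CPM in HYNLE and 61.7 against 6.47 CPM in HYNYA. LPL and CIDEC, of fat cells, had ratios from -0.92 to 0.54 and from -1.66 to -0.25 in the pairs at 10 CPM.

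Cell division genes were higher in 10 of 63 cases (15.9%) and lower in 6 (9.52%), against 6.02% and 7.72% over all genes. Of the 10, 8 were in HYNLE+HC1, where 8.8% of all genes were higher. There CCNB2, a mitotic cyclin, was 1468 against 26.8 CPM, the spindle factor TPX2 253 against 10.5 CPM and the ribonucleotide reductase subunit RRM2 76.4 against 5.41 CPM. In HYNLE+HC3 TPX2 and RRM2 were the other way, with ratios of -4.01 and -5.32, and the replication helicase subunit MCM5 had 1.47. Between the even-count HYNLE+HC1 livers 9 of 16 genes of this list were higher in the liver with more trypsin, against 6.1% of all genes. It was 4 of 10 in HYNLE+HC3, against 12.2%, and 0 of 9 in HYNLE, against 1.76%.

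Going against trypsin were 15 of the 1936 genes (0.775%), none of them a member of any of the 14 lists. The parathyroid hormone receptor PTH1R was lower in the high liver of all 6 tables, in 5 of them with a level of 10 CPM or more. It was 52.0, 161 and 231 CPM in the high, remaining and low liver of HYNLE+HC1, 9.57, 38.2 and 105 CPM in HYNLE+HC3 and 78.6, 122 and 672 CPM in HYNLE. In all 3 tables the remaining liver lay between the others, in the reverse order of trypsin. PTH1R was 66.0 against 194 CPM in HYNQU, 77.9 against 348 CPM in HYNUN and 0 against 3.14 CPM in HYNYA. The value of 0 was in an odd-count liver. The log2 ratios were -2.13, -3.33, -3.08, -1.54, -2.14 and -2.05, and between even-count livers -1.61, -1.44 and -0.63. Without HYNLE+HC3 the rule kept 6 of the 15 genes, and PTH1R, KLF11, ILDR1, C19ORF6, CP, EIF4H, LITAF, PDXDC1 and PNPLA2 were lost. A gene then has to pass in HYNYA by the condition on library kind, and PTH1R was under 10 CPM there.

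LAMP3, a lysosomal membrane protein that in mammals marks mature dendritic cells, was lower by the limit in 5 tables. It was 92.6, 333 and 234 CPM in the high, remaining and low liver of HYNLE+HC1, 34.8, 85.7 and 263 CPM in HYNLE+HC3 and 86.5, 146 and 492 CPM in HYNLE. The high liver was the lowest of the 3 in each of these tables. In the others it was 270.3 against 467 CPM in HYNQU, 102 against 288 CPM in HYNUN and 219.7 against 742 CPM in HYNYA, so that HYNQU, with a ratio of -0.79, fell short of the limit.

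ISG15, a ubiquitin-like protein induced by interferon, had ratios from -7.09 to 0.17. In HYNLE+HC3 it was 6.63, 503 and 1040.3 CPM in the high, remaining and low liver, and in HYNLE 15.1, 13.2 and 1178 CPM. The remaining liver was thus nearer the low liver in the first and nearer the high liver in the second, in both tables the liver of its own library kind. The part of library kind in this was not tested. It was 7.41, 73.5 and 38.2 CPM in HYNLE+HC1, 155 against 295 CPM in HYNQU, 10.3 against 234 CPM in HYNYA and near 0 in both HYNUN livers. IRF9, a factor of the interferon response, was lower in the 4 tables that held it, with ratios of -1.84, -2.05, -1.41 and -1.77 in HYNLE+HC1, HYNLE, HYNQU and HYNYA. Between the even-count livers of HYNLE both were slightly the other way, at 0.18 and 0.45.

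IGJ, the joining chain of secreted antibodies, was 66.9, 168 and 144 CPM in the high, remaining and low liver of HYNLE+HC1, 15.9, 9.91 and 156 CPM in HYNLE+HC3 and 31.1, 88.6 and 342 CPM in HYNLE. It was 244 against 329 CPM in HYNQU and 111 against 395 CPM in HYNYA. Each high liver was below its low liver, and the ratios were -1.09, -3.22, -3.42, -0.43 and -1.82. Between even-count livers they were -1.32, -3.85 and -1.48, and IGJ was the only one of the 15 that passed the limit in all 3 of those pairs. KLF11, a zinc finger repressor, was lower by 1.54 to 2.03 on the log2 scale in 5 tables and had a ratio of -0.16 in HYNYA.

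The rest of this group were single genes with different roles. The kinase NUAK1 had ratios of -2.03, -1.68, -1.71 and -1.94 in HYNLE+HC1, HYNQU, HYNUN and HYNYA, and the tight junction protein ILDR1 had -1.70, -1.61, -1.76 and -1.20 in the H. leechii tables and HYNQU. C19ORF6 had ratios between -1.94 and -1.58 in 4 tables and 0.37 in HYNYA. The mitochondrial MT-ND4L, a complex I subunit, had ratios from -6.75 in HYNYA to 0.87 in HYNLE. The remaining 5 were ceruloplasmin (CP), the triglyceride lipase PNPLA2, the translation factor EIF4H, LITAF and PDXDC1. Of these, CP, LITAF and PDXDC1 had ratios of 1.39, 2.13 and 0.32 in HYNQU, and PNPLA2 had 2.24 in HYNLE+HC1.

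**Figure D5:**
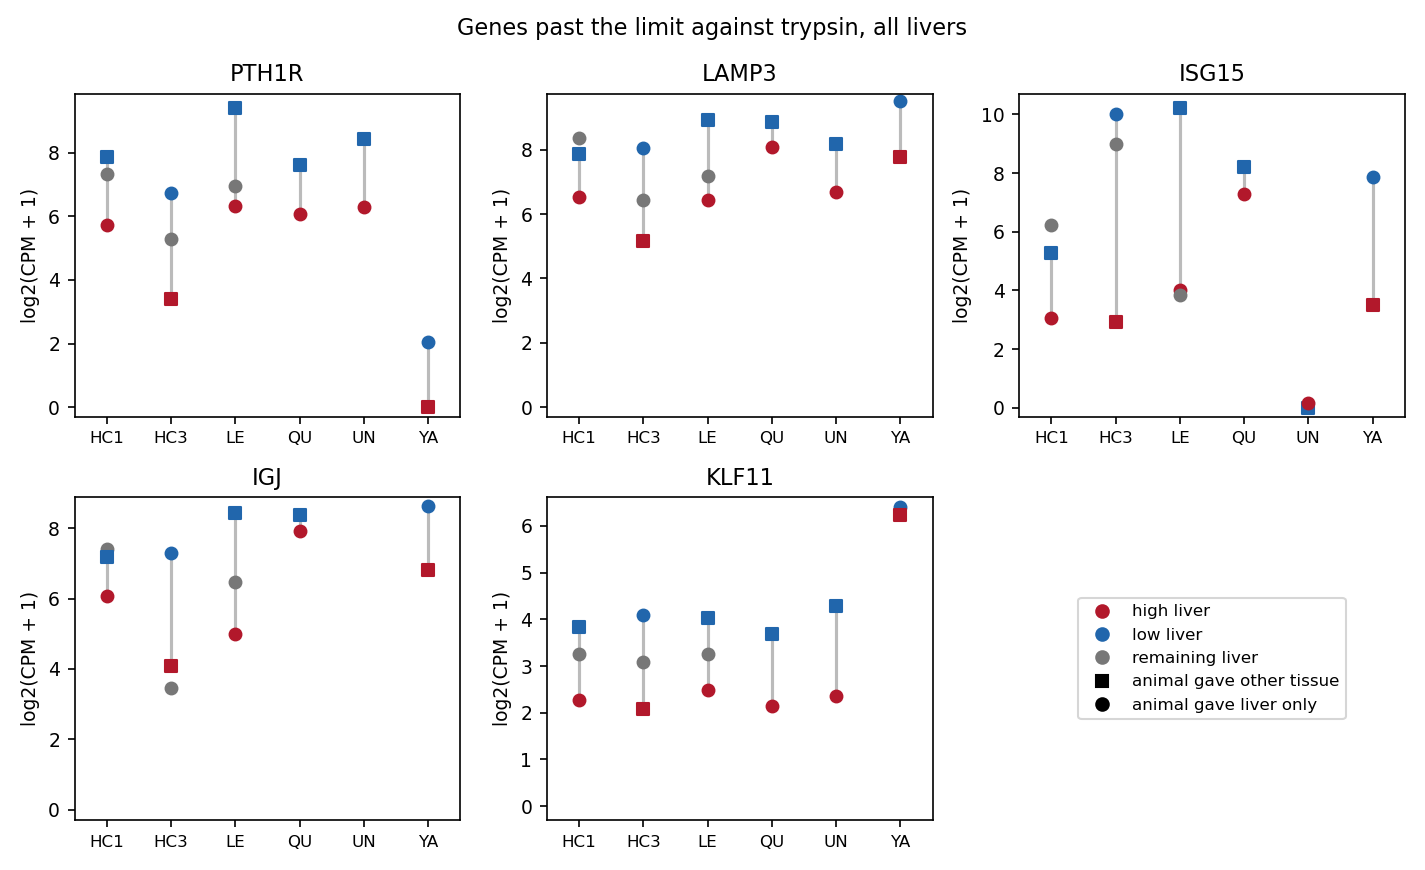
Levels in log2(CPM + 1) of 5 of the 15 genes that were lower in the high liver in at least 4 tables, in every liver. Red, blue and grey mark high, low and remaining livers, squares mark odd-count livers, and a line joins each pair. PTH1R lies lower in the high liver of all 6 tables, though both HYNYA livers are under 10 CPM. ISG15 is near 0 in both HYNUN livers.

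Outside the liver, trypsin was low in all but 1 library. In the intestines PRSS1 or PRSS3 was 0.903 CPM in HYNLE+HC1, 0 in HYNLE, 1.34 CPM in HYNUN and 2.36 CPM in HYNYA, and 383 CPM in HYNQU. In the skins it was 2.16, 2.35 and 0.290 CPM in HYNLE+HC1, HYNLE+HC3 and HYNUN. The intestine of HYNQU came from the animal whose liver had 8.61 CPM. The HYNYA low liver, at 1.85 CPM, was in the range of the other intestines and the skins, whereas the low livers of HYNLE+HC1 and HYNUN, at 577 and 138 CPM, were well above the intestine and skin of the same animals.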

How the data were processed

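RNA was polyadenylated RNA from 23 libraries (15 livers, 5 intestines, 3 skins). The authors deposited whole-number read counts as 6 tables, each for a single lineage and with a row for each gene symbol, per the file headers. BWA and SAMtools were used, per the submitters' processing notes, and versions, genome build and counting rule were not given in the sources used here. Samples were mapped by their titles, which match the column names, since the description field of 18 samples points to the table of a different lineage. The counts of 1 unnamed row per table (0.169% of a library or less) were not used.

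CPM were computed on the total of named genes with Python 3.11.15, numpy 2.4.6, pandas 2.3.3 and scipy 1.17.1. Figures were drawn with matplotlib 3.10.9. Within each table the log2 ratio was that of CPM + 1, high over low liver. A gene was counted as going with trypsin where it was held in at least 4 tables, and in at least 4 tables reached 10 CPM in either liver with a ratio of at least 1, 1 of these being HYNLE+HC3 or HYNYA, and against trypsin with a ratio of -1 or less. Such ratios understate the change of low genes. A count of 0 was given a floor of 3 counts in that library. The ratios are not corrected for transcript length, so levels of different genes are not compared. The rule was run on simulated data, where 200 of 200 genes changed by 4-fold, a change past the ratio limit, were recovered. How many unchanged genes passed is not given here. Recovery alone cannot show how often library kind or differences among animals make a gene pass, so no conclusion on this is drawn from it. No test was made between high and low livers, which are 1 library a side and were chosen by the value. Nothing in the labels says more of how animals were sampled.

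Named genes were the digestive enzymes, the first 25 genes with and first 10 against trypsin, up to 4 members of each list with the highest mean CPM over the 12 livers, and INS, GCG, SST, CFTR, KRT19 and SOX9, and others are said to be named after their values were seen or come from a list as its members past the limit. Also named in this way after their values were seen are the remaining genes against trypsin, PPY, SCG2, ABCC8, EPCAM, AQP1, CA2, ZG16, PDIA2, GP2, BHLHA15 and NR5A2. SOX9 was not analysed here, and single results for some listed genes are not reported here, although the counts include them. The livers, the lists and the rules were chosen with earlier results of these data known. Alternatives were TMM factors (edgeR 4.0.16 in R 4.3.3, used for size factors only), median-of-ratios factors, other pseudocounts, minimum levels and ratio limits, thinning to equal depth, leaving out each table, and livers of animals that gave no other tissue.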

Additional observations from a re-analysis of the deposited data

Results flagged for a closer look

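Among 25 groups of 4 to 6 tables, 5 held a table whose ratio lay far from the rest. Chance flags about 1 in 20 such groups where the values were not used to choose them. All 5 were genes chosen by these same ratios, so no excess over chance is read from the number. These were CPA1 in HYNUN, with a log2 ratio of 1.15 where the other 4 tables had 6.17 to 8.15, and KLK14 in HYNYA, with 3.17 where the others had 5.02 to 6.04. KLF11 in HYNYA had -0.16, NUAK1 in HYNLE 0.27 and TOMM20 in HYNYA -3.25, each against the direction or size seen in the other tables.

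RPS26 had a median log2 ratio of 6.94 in the 4 tables whose low liver was the odd-count library and the opposite sign in HYNLE+HC3 and HYNYA, where the high liver was. This difference between tables was not tested.

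Trypsin was counted in libraries that no pair uses. It was 383 CPM in the HYNQU intestine, 1.34 CPM in the HYNUN intestine, 2.36 CPM in the HYNYA intestine, 2.16 CPM in the HYNLE+HC1 skin and 2.35 CPM in the HYNLE+HC3 skin, each above 3 counts of the library.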

How the results depend on the processing

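No paired analysis was possible because the livers of a pair were chosen by the measured value, so that no test was made. The 8 genes with trypsin became 14 with median-of-ratios factors, 29 without a minimum level, 5 at 50 CPM, 4 at a ratio of 2, 13 without the condition on library kind (added after seeing the data) and 1 between livers of animals that gave no other tissue (0.12% of 836 genes), where none of the 8 was kept. That last setting needs a row in all 3 H. leechii tables. PRSS1, CPA1, CUZD1 and SERPINI2, and IRF9 and NUAK1 among the genes against, lack 1 and could not be kept. CPA1 passed the limit in both of the even-count pairs that held it, with log2 ratios of 7.61 and 6.11. PRSS1 had 8.92 and 7.36 there, but its direction was fixed, since these pairs were ordered by PRSS1, and it is no finding. The 15 genes against became 9 with TMM or median-of-ratios factors, 66 without a minimum, 8 at 50 CPM, 2 at a ratio of 2 and 6 (0.718%) between those livers, of which 1, IGJ, was shared. Leaving out 1 table, with 3 of 5 tables then enough, gave 9 to 28 genes with and 22 to 70 against. All 8 were kept under TMM and median-of-ratios factors, and 6 of 8 without HYNLE+HC3, where TOMM20 was among the lost, or without HYNYA, where CUZD1 and POLR2I were lost. Of the 15 genes against, 9 were kept under either factor, 6 without HYNLE+HC3 and 13 without HYNYA. With either of these tables left out, a gene has to pass in the other by the condition on library kind. The acinar list's median of 0.68 was 0.22 with a pseudocount of 5 CPM, and 0.54 to 0.82 with 1 table left out, and the digestive list's median was 3.04 to 3.66 over all settings. RAB3D, held in 2 tables, had a median of 1.25 that turned to -0.13 without HYNLE+HC1, which leaves HYNUN alone, and was 2.63 without HYNUN. The cause of these shifts was not tested, other than fewer tables or genes by construction. With 1 high and 1 low liver a table, the spread among animals of like trypsin level in a lineage cannot be estimated, and intervals on folds cover counting error only, in libraries whose counts may not be independent reads.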

Other observations

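Some genes outside the lists with wide ratios were chosen after their values were seen. PDILT and CASQ1 were held in 3 tables and CHI3L2 in 2, so they could not meet the limit of 4 tables. Where held, PDILT was higher in 2 tables, CASQ1 in 3 and CHI3L2 in 2. NLGN1 was held in 4 tables and was higher in 2. PDILT, an isomerase known from mammalian testis, was 866, 443 and 9.33 CPM in the high, remaining and low liver of HYNLE and 136 against 2.31 CPM in HYNUN, but 63.5 against 49.6 CPM in HYNLE+HC1. CHI3L2, a chitinase-like protein, was 73.8, 1.54 and 0.0576 CPM in the HYNLE livers, the last being 1 count, and 614 against 6.87 CPM in HYNUN. NLGN1, a synaptic adhesion protein in mammals, was 1794 against 14.6 CPM in HYNUN and 197 against 0.185 CPM in HYNYA, with 32.7 against 28.2 CPM in HYNQU. CASQ1, a calcium-binding protein of muscle, was 54.2 against 1.96 CPM in HYNLE+HC1 and 438 against 0.604 CPM in HYNUN. In HYNLE+HC3 it was 44.8, 750.5 and 3.32 CPM, so that the remaining liver was the highest.

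IGLL5, an immunoglobulin light chain gene, was 7.86, 25.5 and 221 CPM in the high, remaining and low liver of HYNLE+HC3, 8.22, 43.6 and 60.7 CPM in HYNLE and 41.1 against 293 CPM in HYNYA. In HYNLE+HC1 it was 86.9, 170.4 and 65.0 CPM, and that table did not share the order.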
